A study of Mus musculus with 12 samples.

Results

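The genes described here were 36 genes of the oligodendrocyte lineage, taken by their Ensembl mouse identifiers from the 54532 genes counted in each of 12 RNAseq libraries, and all 36 were found. They were read in 3 classes by the stage at which each is usually expressed, namely 8 precursor genes, 6 genes of differentiating cells and 22 myelin genes. The libraries came from Nestin-Tv-a (Ntv-a) mice with floxed p53 on a C57BL/6 background, whose brainstem progenitors were taken at postnatal days 3 to 5, per the labels, and grown as neurospheres with EGF and FGF2. The Tv-a receptor, which is driven by the nestin promoter in these mice, lets RCAS viruses into nestin-expressing cells. The 4 groups of 3 libraries differed in the virus given, which carried *ACVR1* WT or *ACVR1* R206H, each alone or together with a virus for H3.1K27M. Every group therefore carried added *ACVR1*, and an uninfected group was not analysed here. No Cre virus is listed in the labels of these libraries. The labels call the 3 libraries of a group replicates without saying whether they came from separate litters or cultures, so that p values measure the spread between these libraries only.

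Oligodendrocyte precursors are held by the transcription factors OLIG1, OLIG2, SOX10 and NKX2-2, and divide in response to growth factors. When a precursor leaves the cycle it passes through a short stage marked by the receptor GPR17, switches on MYRF, and then makes the lipids and proteins of myelin. BMP signaling, of which ACVR1 is a type I receptor, is known to hold precursors back from this path and to favor astrocytes, with the ID proteins among its targets, and the question of the design for these genes is what the R206H change and H3.1K27M, alone and together, were accompanied by at each stage.

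The libraries held 19315020 to 26456257 counts, with a median of 20994196. The level of a gene is its CPM, the count relative to the library total after TMM normalization over the 12 libraries, always in the order of replicates 1, 2 and 3. *Acvr1*, which the counts cannot split into viral and endogenous reads, stood at 53.5, 46.4 and 52.7 CPM with *ACVR1* WT and at 114, 81.9 and 85.8 CPM with *ACVR1* R206H. With H3.1K27M it stood at 169.9, 162 and 364 and at 999, 561 and 1057 CPM, so that the R206H groups and the H3.1K27M groups also differed in the amount of *Acvr1* RNA. The 7 neural progenitor markers (*Nes*, *Sox2*, *Vim*, *Fabp7*, *Prom1*, *Msi1* and *Sox9*) were all detected and summed to between 4093 and 5856 CPM per library. The *ACVR1* WT group was uneven. Its biological coefficient of variation was 0.273, against 0.045 to 0.059 in the other groups, and *ACVR1* WT replicate 1 stood apart from replicates 2 and 3. For that reason the tests that use this group are given with and without replicate 1, a library singled out after its values were seen.

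The precursor genes were the most abundant class. Per kilobase of exon, the median over the 8 precursor genes was 62.1 CPM per kb, against 2.13 for the 6 genes of differentiating cells and 3.36 for the 22 myelin genes, taking the mean of each gene over the 12 libraries. *Olig1* was the highest of the 36 at 957 CPM per kb, followed by *Olig2* at 286, *Sox8* at 115, *Lhfpl3* at 109 and *Gjc3*, a connexin of glial cells, at 94.8. Of the myelin genes 6 were under 1 CPM per kb. *Opalin*, a transmembrane protein of mature oligodendrocytes, had 0 to 6 reads per library, *Ninj2*, an adhesion molecule, 0 to 6 and *Ermn*, a cytoskeletal protein of late oligodendrocytes, 4 to 12, where a count of 0 allows up to 3 counts. These 3 genes fell below the filter of a mean normalized count of 10 and were tested in no comparison. The RNA of *Mbp*, for a protein of compact myelin, was at 6.62 CPM per kb, and that of *Mog*, for a protein of the outer myelin layer, at 0.899.

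**Figure D1:**
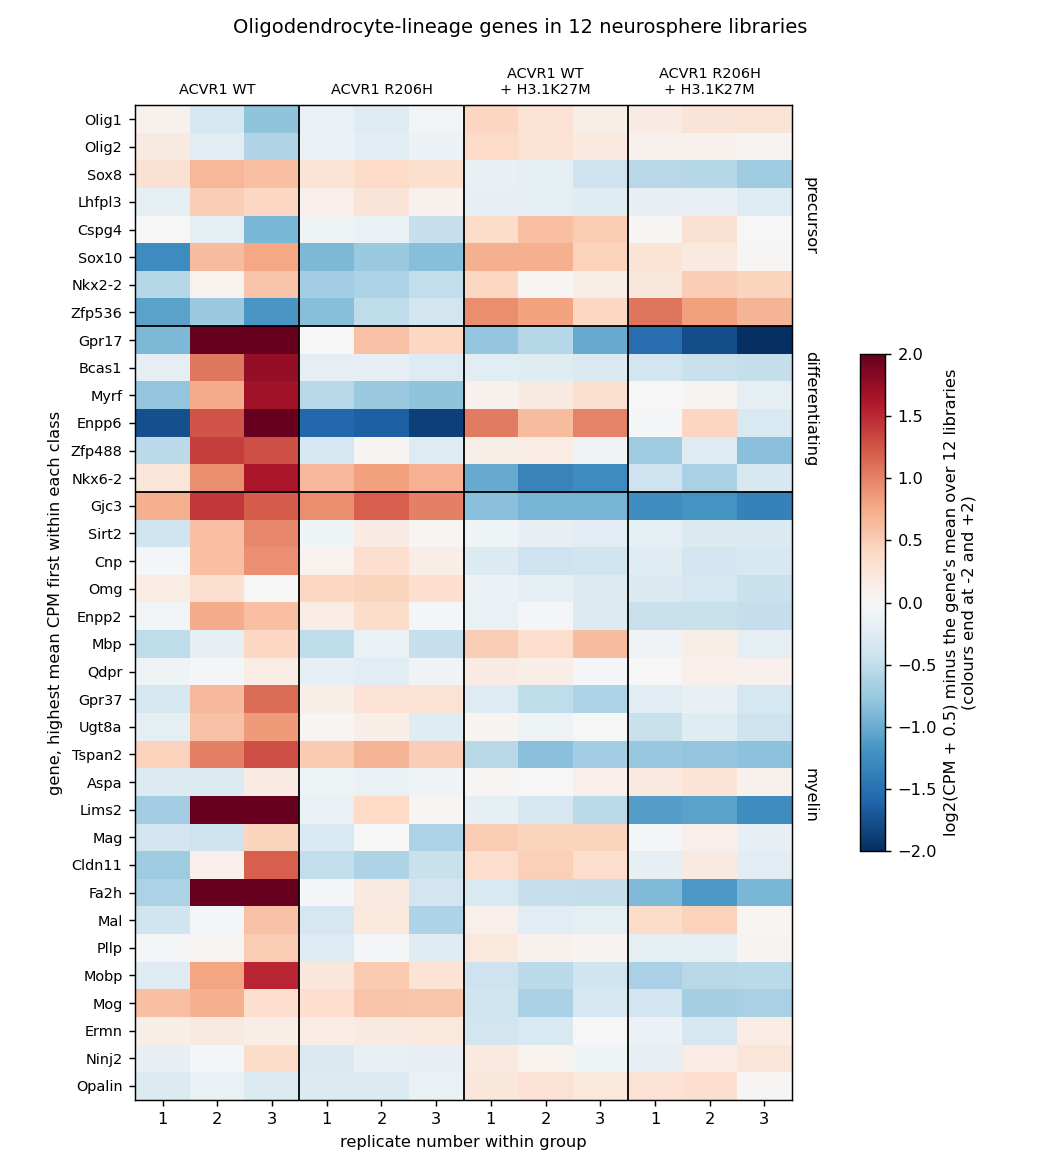
Heat map of the 36 genes (rows, by class, highest mean CPM first) in 12 libraries (columns, 3 replicates in each of 4 groups). Color is log2(CPM + 0.5) minus the mean of the gene over the 12 libraries. *ACVR1* WT replicates 2 and 3 are red in all 6 rows of differentiating cells, replicate 1 is red only for *Nkx6-2* among them, and several myelin genes, *Gjc3* the most abundant, are blue in the 6 libraries with H3.1K27M.

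Among the precursor genes, *Sox10* (chr15:79154908-79165240, minus strand, mm10), the transcription factor that switches on many myelin genes, stood at 16.8, 63.3 and 70.0 CPM with *ACVR1* WT, 21.7, 24.3 and 22.3 with *ACVR1* R206H, 67.2, 67.1 and 56.6 with *ACVR1* WT and H3.1K27M, and 49.3, 46.7 and 41.5 with *ACVR1* R206H and H3.1K27M. *ACVR1* WT replicate 1 lay below all 3 R206H libraries, whereas replicates 2 and 3 lay in the range of the H3.1K27M groups or above it. *Olig1* (chr16:91269772-91271933) and *Olig2* (chr16:91225457-91228677) are neighboring bHLH factors that specify the lineage. *Olig1* was at 2134, 1581 and 1152, 1851, 1689 and 1946, 2708, 2471 and 2192 and 2272, 2405 and 2430.5 CPM in the same order of groups. *Olig2* was at 806, 609 and 471, 657, 610.3 and 656, 933, 873 and 819.6 and 757, 761 and 745 CPM. In contrast to *Sox10*, both were highest in replicate 1 of the *ACVR1* WT group and lowest in replicate 3. *Cspg4*, the surface proteoglycan by which precursors are recognized, followed the same order within *ACVR1* WT, at 95.9, 85.1 and 50.9 CPM, with 89.5, 87.7 and 70.3, 125, 146 and 137 and 97.9, 119.9 and 96.3 CPM in the other groups.

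*Sox8*, a relative of *Sox10*, was at 425, 545 and 520.2 CPM with *ACVR1* WT, 414, 445 and 429 with *ACVR1* R206H, 308, 304 and 257 with *ACVR1* WT and H3.1K27M, and 234, 230.0 and 209.8 with *ACVR1* R206H and H3.1K27M, so that every library with H3.1K27M lay below every library without it. *Nkx2-2*, a homeodomain factor of late precursors, was at 13.4, 21.0 and 30.2, 12.3, 12.7 and 14.1, 27, 20.5 and 22.1 and 23.6, 28.3 and 27.6 CPM. The R206H libraries without H3.1K27M overlapped only *ACVR1* WT replicate 1. *Zfp536*, a zinc finger protein, had 3 to 13 reads per library without H3.1K27M and 36 to 55 with it, and passed the filter only where the H3.1K27M libraries entered the fit. *Lhfpl3*, a membrane protein, ranged from 287 to 485 CPM over the 12 libraries.

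The 6 genes of differentiating cells separated the *ACVR1* WT replicates most. *Gpr17*, the receptor of committed precursors, was at 36.5, 722 and 1273 CPM with *ACVR1* WT, a ratio of 34.9 between the highest and lowest replicate, and at 68.2, 103 and 91.3 with *ACVR1* R206H, 39.5, 45.7 and 33.7 with *ACVR1* WT and H3.1K27M, and 23.3, 19.6 and 15.8 with *ACVR1* R206H and H3.1K27M. *ACVR1* WT replicate 1 thus lay within the range of the *ACVR1* WT and H3.1K27M libraries and below all R206H libraries without H3.1K27M. *Enpp6*, a choline phosphodiesterase of newly formed oligodendrocytes, was at 1.09, 12.4 and 36.7, 1.30, 1.24 and 0.969, 10.6, 7.80 and 10.2 and 4.79, 6.72 and 3.85 CPM. *Myrf*, the membrane-bound factor that myelin genes depend on, was at 4.22, 13.1 and 25.7, 5.05, 4.34 and 4.16, 8.14, 8.71 and 9.62 and 7.6, 7.91 and 6.65 CPM. For both genes *ACVR1* WT replicate 1 lay within the range of the R206H libraries without H3.1K27M and below all 6 libraries with it. *Bcas1*, a protein of early myelinating cells, was at 72.2, 169 and 275 CPM with *ACVR1* WT and between 58.6 and 72.8 CPM in the 9 libraries of the other groups. *Zfp488*, a zinc finger protein that promotes differentiation, was at 3.37, 14.0 and 13.1, 3.85, 5.27 and 4.12, 5.48, 5.66 and 4.79 and 2.90, 4.13 and 2.62 CPM. *Nkx6-2*, a homeodomain factor, was at 5.36, 8.97 and 14.9, 7.30, 8.27 and 7.51, 1.96, 1.48 and 1.58 and 3.23, 2.68 and 3.48 CPM, and was lower in every library with H3.1K27M than in every library without it.

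**Figure D2:**
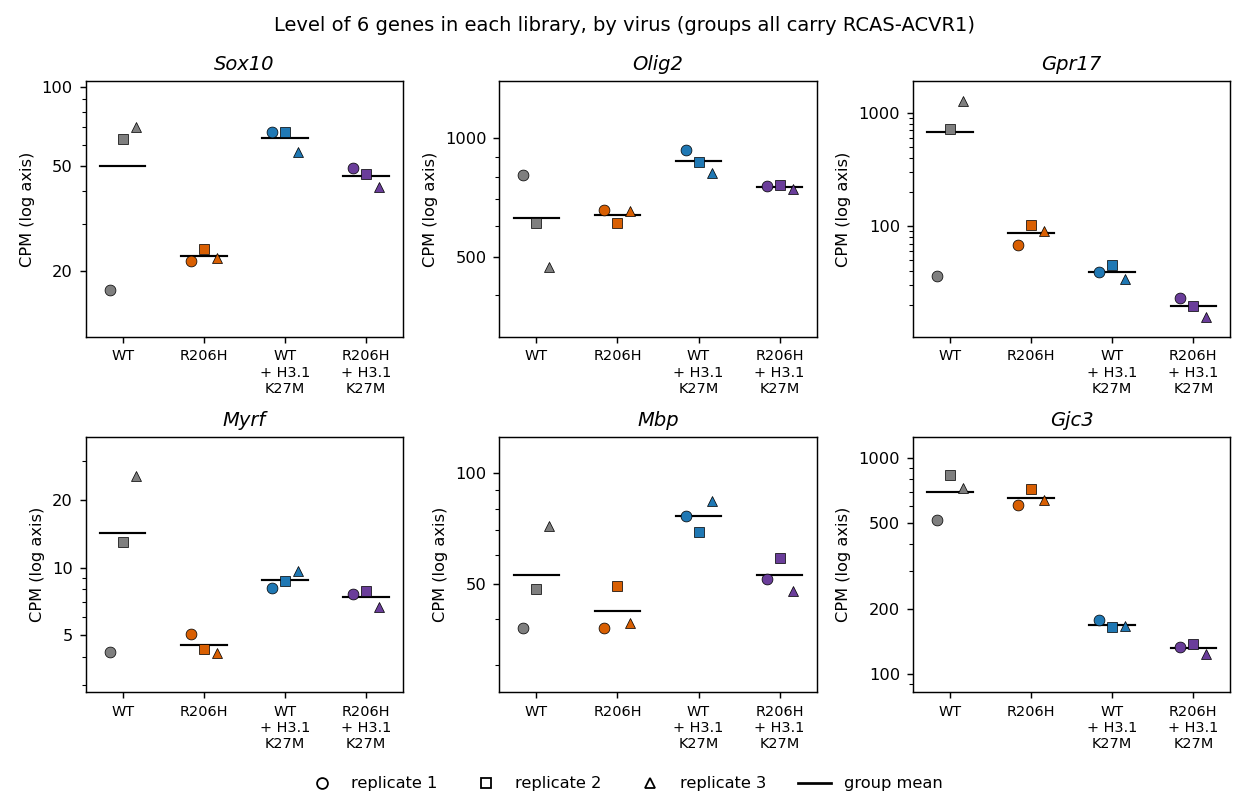
CPM (log axis) of *Sox10*, *Olig2*, *Gpr17*, *Myrf*, *Mbp* and *Gjc3* in each of 12 libraries. Points are libraries, with the shape giving the replicate number, and bars are group means. In the *ACVR1* WT group replicate 1 (circle) is far below replicates 2 and 3 for *Sox10*, *Gpr17* and *Myrf* and above them for *Olig2*, while *Gjc3* is lower in all libraries with H3.1K27M.

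Of the myelin genes, *Gjc3* (chr5:137953461-137963098, minus strand, mm10) was at 517, 841 and 729 CPM with *ACVR1* WT, 604, 722 and 638 with *ACVR1* R206H, 177, 165 and 166 with *ACVR1* WT and H3.1K27M, and 133, 138 and 123 with *ACVR1* R206H and H3.1K27M. Each H3.1K27M library had less than each library without H3.1K27M, and the R206H libraries with H3.1K27M were the lowest 3. Of the members with an entry in the RefSeq promoter table, *Gjc3* had the smallest adjusted p for R206H with H3.1K27M, and the 250 bases before its start are shown from that table (GRCm38.p6, the same build as mm10), at chr5:137963099-137963348 and read on the minus strand. Capitals mark its match to an E-box that OLIG2 can bind, CATCTG, here on the other strand, with its first base at -59 from the start:
Gjc3: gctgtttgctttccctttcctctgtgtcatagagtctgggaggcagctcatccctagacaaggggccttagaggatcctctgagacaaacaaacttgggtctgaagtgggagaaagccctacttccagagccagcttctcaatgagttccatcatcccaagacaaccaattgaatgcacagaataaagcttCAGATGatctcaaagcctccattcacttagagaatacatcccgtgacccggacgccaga
Searched on both strands, either of the E-boxes CATCTG and CAGCTG was present in the 250 bases of 9 of the 26 genes with an entry in that table and in 25.5% of all 32851 promoters. Either of the SOX motifs ACAAAG and ACAATG was present in 9 of 26 and in 25.2% of all promoters, and the MYRF motif CTGGCAC in *Cnp* and *Mag* and in 4.19% of all. The letters of a match do not show that a factor was bound.

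*Mbp*, which holds the inner faces of the myelin membrane together, was at 38.0, 48.4 and 71.9 CPM with *ACVR1* WT, 38.0, 49.3 and 39.1 with *ACVR1* R206H, 76.3, 69.3 and 83.9 with *ACVR1* WT and H3.1K27M, and 51.6, 58.6 and 47.9 with *ACVR1* R206H and H3.1K27M. *Mag*, an adhesion protein that faces the axon, was at 5.45, 5.29 and 10.019, 5.75, 7.19 and 4.5, 10.5, 10.04 and 10.1 and 7.07, 7.82 and 6.39 CPM. Within the H3.1K27M groups, all R206H libraries were below all *ACVR1* WT libraries for both genes. *Mog*, a surface protein of the outer myelin layer, was at 2.37, 2.59 and 1.91, 1.90, 2.33 and 2.28, 0.941, 0.714 and 0.990 and 0.949, 0.703 and 0.710 CPM, with all libraries with H3.1K27M under 1 CPM. *Cnp*, the cyclic nucleotide phosphodiesterase of non-compact myelin, was at 246, 382 and 473, 263, 317 and 274, 207, 187 and 190.0 and 212, 191 and 200.04 CPM. *Cldn11*, the claudin of myelin tight junctions, was at 3.56, 6.69 and 14.7, 4.25, 3.83 and 4.41, 7.98, 8.76 and 8.04 and 5.46, 7.03 and 5.27 CPM. *Cnp* and *Cldn11* shared the order of the *ACVR1* WT replicates, lowest in replicate 1 and highest in replicate 3, and differed under H3.1K27M, where *Cnp* was lower than in any library without it.

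*Fa2h*, which hydroxylates the fatty acids of myelin lipids, was at 1.33, 11.9 and 21.1 CPM with *ACVR1* WT, 2.30, 2.74 and 1.69 with *ACVR1* R206H, 1.80, 1.57 and 1.54 with *ACVR1* WT and H3.1K27M, and 1.04, 0.791 and 1.01 with *ACVR1* R206H and H3.1K27M. *Ugt8a*, which makes galactosylceramide, was at 19.8, 34.3 and 41.4, 23.3, 24.9 and 19.1, 23.6, 21.1 and 22.8 and 16.6, 19.1 and 16.9 CPM. Both lipid genes were lowest in replicate 1 of the *ACVR1* WT group, *Fa2h* by far more. *Lims2*, an adaptor of integrin adhesions, was at 3.56, 28.7 and 42.4, 5.45, 8.17 and 6.15, 5.28, 4.71 and 3.9987 and 2.56, 2.64 and 2.28 CPM. As for *Gpr17*, with which it shares 188 exon bases on the opposite strand, *ACVR1* WT replicates 2 and 3 lay above all other libraries, and reads in the shared stretch were left out by the counting. *Enpp2*, the autotaxin enzyme that makes lysophosphatidic acid, was at 78.8, 137 and 124, 90.9, 106 and 80.6, 74.8, 79.6 and 67.6 and 59.6, 59.5 and 58.7 CPM. *Tspan2*, a tetraspanin, was at 28.3, 41.3 and 50.5, 29.3, 33.0 and 28.7, 13.7, 11.2 and 12.4 and 11.8, 11.5 and 11.3 CPM. *Omg*, a myelin glycoprotein that limits axon growth, was at 127, 142 and 114, 152, 155 and 144, 106, 99.9 and 94.7 and 93.1, 90.1 and 83.7 CPM, and was the only one of the 32 members tested there for which all R206H libraries without H3.1K27M lay above all *ACVR1* WT libraries, against 4.37% of all genes. *Pllp* was the only one for which they all lay below, at 1.85, 2.22 and 1.89 against 2.28, 2.39 and 3.52 CPM, where 5.24% of all genes did. The other 7 tested myelin genes were *Sirt2*, a tubulin deacetylase, at 228 to 585 CPM over the 12 libraries, *Qdpr*, a reductase of biopterin, at 39.8 to 51.8, *Gpr37*, a receptor, at 19.5 to 66.4, *Aspa*, the aspartoacylase, at 9.81 to 14.6, *Mal* and *Pllp*, proteins of membrane rafts, at 1.36 to 3.76 and 1.85 to 3.52, and *Mobp*, a basic protein of myelin, at 0.760 to 5.18. Of the exon bases of *Pllp* 54.2% are shared with another annotated gene, so that its counts are uncertain. The share was 9.67% to 18.6% for *Qdpr*, *Lhfpl3*, *Nkx6-2*, *Bcas1*, *Sox8* and *Nkx2-2*.

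The *ACVR1* WT replicates differed most at the differentiating stage, and *Gpr17* had the largest ratio between *ACVR1* WT replicates of all 15445 genes tested in the 12 libraries, with *Enpp6* at rank 3, *Fa2h* at 18 and *Lims2* at 38 (ratios of CPM + 0.5). Of the 33 members tested, replicate 1 was the lowest of the 3 for 26, or 78.8%, against 43.0% of all genes tested, and replicate 3 the highest for 22, or 66.7%, against 35.4%. By CPM + 0.5, the highest was over 2 times the lowest for 15 members in this group, 45.5% against 12.5% of all genes, and for 0 members in each of the other 3 groups. All 6 genes of differentiating cells were among the 15, with 7 of 19 myelin genes and 2 of 8 precursor genes, *Sox10* and *Nkx2-2*. By CPM alone, the low genes *Mal* and *Zfp536* also had ratios over 2, at 2.27 and 2.48 with *ACVR1* WT and 2.06 and 2.10 with *ACVR1* R206H. In log2 units replicate 1 was nearer to the mean of the R206H libraries than to that of replicates 2 and 3 for 30 of the 33, or 90.9%, against 77.3% of all genes. The summed CPM of the 6 genes was 123 in replicate 1, 939.5 in replicate 2 and 1638 in replicate 3.

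The sums of astrocyte and microglia markers moved with this order, and those of the other lists did not all do so. All 8 astrocyte markers were lowest in *ACVR1* WT replicate 1, summing to 5153 CPM there, 11041 in replicate 2 and 15398 in replicate 3, against 7934 to 9027 CPM with *ACVR1* R206H, 5507 to 5749 with *ACVR1* WT and H3.1K27M, and 6761 to 6808 with *ACVR1* R206H and H3.1K27M. *Gfap* was at 346, 1419 and 2674 CPM and the progenitor gene *Nes* in the reverse order, at 407, 132 and 73.0 CPM. Of the 7 neural progenitor markers, however, 4 were lowest in replicate 1 and 2 were highest there. Their sums were 5476, 5052 and 4093 CPM in replicates 1, 2 and 3. The 8 neuron markers summed to 1208, 1695 and 1519 CPM in the *ACVR1* WT replicates, with *Dcx* at 10.7, 83.4 and 119 CPM. Of 7 microglia markers 6 were lowest in replicate 1, and their sum was 3.27 to 12.5 CPM in this group and at most 6.00 CPM elsewhere. In the same replicates the sums were 11.5, 10.6 and 8.46 CPM for endothelium and pericytes and 52.2, 40.8 and 50.6 CPM for Schwann cells. They were 31.3, 36.3 and 56.9 CPM for ependyma and 2.42, 2.54 and 2.83 CPM for fibroblasts. No marker of these lists was at 0 in every library. In bulk samples fewer cells of a type and less RNA per cell cannot be told apart, and the part of these other cells in the values of the 36 genes was not tested.

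With H3.1K27M, 17 of the 33 members tested fell and 1 rose with *ACVR1* R206H relative to *ACVR1* WT at an adjusted p under 0.05 (quasi-likelihood test of edgeR, adjusted by Benjamini and Hochberg over 15672 genes), where 8.95% of all genes tested were lower and 11.4% higher. The fall took in all 3 stages, with 4 of 8 precursor genes, 4 of 6 genes of differentiating cells and 9 of 19 myelin genes. The decreases were mostly modest. The median log2 fold change of the 33 was -0.21, against 0.0014 for all genes, and 1 of the 17, *Gpr17*, reached a log2 fold change of 1 in size. This comparison does not use the *ACVR1* WT libraries without H3.1K27M. The 3 R206H libraries lay below all 3 *ACVR1* WT libraries for 18 of the 33 members and above them for 1, where 18.4% of all genes were separated in each direction.

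Of the precursor genes, *Sox10* fell, with a log2 fold change of -0.47 (SE 0.076, edgeR adjusted p = 0.00085). *Cspg4* changed by -0.37 (SE 0.078, edgeR adjusted p = 0.0049). *Sox8* changed by -0.36 (SE 0.064, edgeR adjusted p = 0.0017) and *Olig2* by -0.21 (SE 0.045, edgeR adjusted p = 0.0058). For these 4 genes the groups did not overlap. *Olig1* gave -0.046 (SE 0.061, edgeR adjusted p = 0.65) with overlapping groups, and *Nkx2-2*, *Zfp536* and *Lhfpl3* did not pass, with log2 fold changes of 0.20, 0.17 and 0.003. Of the lineage factors that specify precursors, *Sox10* and *Olig2* were thus lower with R206H while *Olig1* was not separated.

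Among the genes of differentiating cells, *Gpr17* fell, with a log2 fold change of -1.02 (SE 0.13, edgeR adjusted p = 0.00011), to 23.3, 19.6 and 15.8 CPM, below all other libraries. *Enpp6* changed by -0.91 (SE 0.18, edgeR adjusted p = 0.0029). *Zfp488* changed by -0.72 (SE 0.17, edgeR adjusted p = 0.0087) and *Bcas1* by -0.18 (SE 0.045, edgeR adjusted p = 0.012). *Nkx6-2* was the exception and rose, by 0.90 (SE 0.18, edgeR adjusted p = 0.0041). The R206H libraries lay below the *ACVR1* WT libraries for *Myrf* too, with a log2 fold change of -0.26 (SE 0.10, edgeR adjusted p = 0.11), which did not pass. All 6 genes of this stage therefore had groups that did not overlap, 5 of them lower and 1 higher.

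Among the myelin genes, *Gjc3* fell, with a log2 fold change of -0.36 (SE 0.048, edgeR adjusted p = 0.0002), and *Mbp* with -0.53 (SE 0.078, edgeR adjusted p = 0.00041). *Lims2* changed by -0.90 (SE 0.15, edgeR adjusted p = 0.0013). These 3 were followed by *Enpp2*, at -0.31 (SE 0.056, edgeR adjusted p = 0.0019), *Mag*, at -0.52 (SE 0.10, edgeR adjusted p = 0.0023), and *Ugt8a*, at -0.36 (SE 0.074, edgeR adjusted p = 0.0047). *Cldn11* changed by -0.47 (SE 0.12, edgeR adjusted p = 0.014), *Fa2h* by -0.78 (SE 0.22, edgeR adjusted p = 0.026) and *Omg* by -0.17 (SE 0.052, edgeR adjusted p = 0.041). The structural genes *Cnp* and *Mog* did not pass, at 0.053 (SE 0.05, edgeR adjusted p = 0.51) and -0.18 (SE 0.27, edgeR adjusted p = 0.7). The other 8 tested myelin genes did not pass either, with log2 fold changes from -0.25 for *Pllp* to 0.47 for *Mal*.

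The calls depend on how the spread was estimated. With all 12 libraries in 1 fit, in which the uneven *ACVR1* WT group sets part of the spread, 0 of the 33 members passed in edgeR's test, as did 2.85% of all genes, and 5 had an unadjusted p under 0.05, as did 14.9%. With the same fit without *ACVR1* WT replicate 1 the counts were 9 lower and 1 higher, where 4.91% and 8.06% of all genes were. DESeq2 on the 6 libraries gave 16 lower and 1 higher, against 7.06% and 9.02%. Of the 8 astrocyte markers 4 were higher and 1 lower with R206H in this comparison, and of the 7 neural progenitor markers 4 were higher and 1 lower. Of 8 neuron markers 3 were higher and 1 lower, and 2 of 3 tested endothelium and pericyte markers, 2 of 4 tested fibroblast markers, 1 of 4 tested ependymal markers, 1 of 5 tested Schwann cell markers and the 1 tested microglia marker were higher. The part of these cells in the values of the 36 genes was not tested. The 4 markers used for precursor cells, *Pdgfra*, *Cspg4*, *Sox10* and *Olig2*, were all lower, but all except *Pdgfra* are themselves among the 36 genes.

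**Figure D3:**
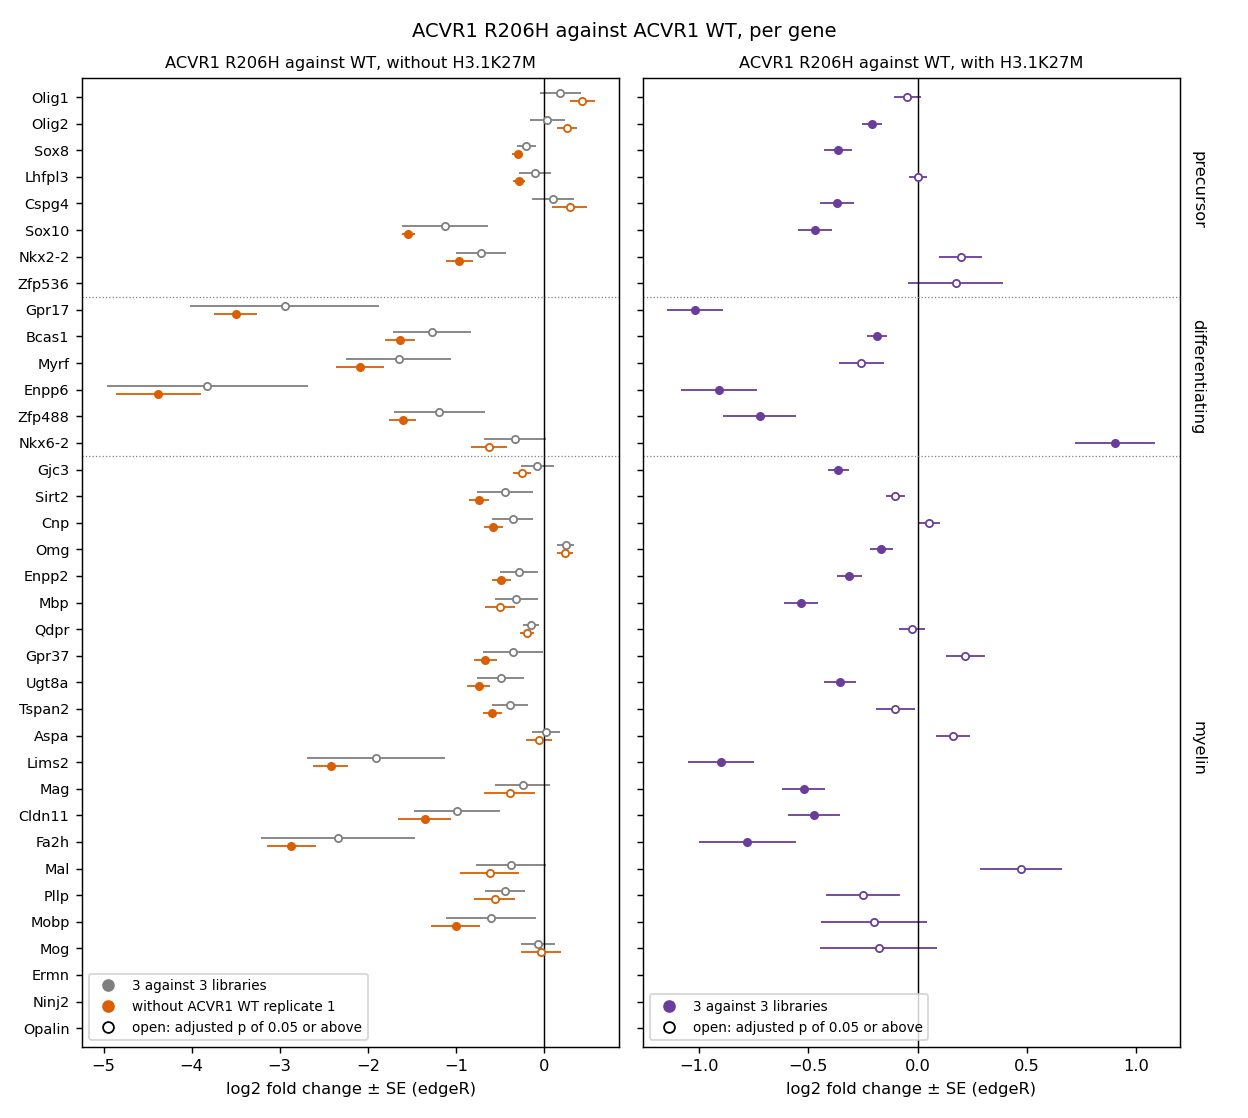
Log2 fold change of *ACVR1* R206H against *ACVR1* WT with its SE for each member, without H3.1K27M (left) and with it (right). The axes differ in scale, filled points have an adjusted p under 0.05 in edgeR's quasi-likelihood test, and rows with no point were not tested. On the left 0 of 32 members pass with all 6 libraries (gray) and 19 without *ACVR1* WT replicate 1 (orange); on the right 18 of 33 pass.

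Without H3.1K27M, R206H against WT passed for 0 of 32 members in edgeR's quasi-likelihood test, as did 0.0% of the 15066 genes tested, and 8 members had an unadjusted p under 0.05, where 3.54% of all genes did. DESeq2 also called 0 members, against 0.173% of all genes, with 11 at an unadjusted p under 0.05, against 3.35%. Of the 32 log2 fold changes 27 were negative, with a median of -0.37 over the members and of -1.46 over the 6 genes of differentiating cells. Over all genes tested 53.7% were negative and the median was -0.013. *Enpp6* gave -3.82 (SE 1.14, edgeR adjusted p = 0.94), *Gpr17* -2.94 (SE 1.07, edgeR adjusted p = 0.94) and *Myrf* -1.65 (SE 0.60, edgeR adjusted p = 0.94). The myelin genes *Fa2h* and *Lims2* lay between *Gpr17* and *Myrf*, at -2.34 and -1.91. *Sox10* gave -1.13 (SE 0.49, edgeR adjusted p = 0.94). For these 6 genes *ACVR1* WT replicate 1 lay among the R206H libraries or below them and replicates 2 and 3 above. *Olig1*, *Olig2* and *Cspg4* were near 0, at 0.18, 0.038 and 0.10, as were *Mog* and *Gjc3*, at -0.069 and -0.078. *Mbp*, *Mag*, *Cnp* and *Cldn11* gave -0.32, -0.24, -0.36 and -0.99, none of which passed.

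When *ACVR1* WT replicate 1 was left out, 19 of 32 members were lower and 0 higher with R206H, where 11.0% of all genes tested were lower and 12.1% higher. These were 4 precursor genes, 5 genes of differentiating cells and 10 myelin genes. *Sox10* then gave -1.54 (SE 0.079, edgeR adjusted p = 0.00044), and *Nkx2-2* -0.96 (SE 0.15, edgeR adjusted p = 0.0056). *Gpr17* gave -3.50 (SE 0.24, edgeR adjusted p = 0.0012), *Enpp6* -4.38 (SE 0.48, edgeR adjusted p = 0.0022) and *Myrf* -2.09 (SE 0.27, edgeR adjusted p = 0.0033). Of the myelin genes, *Fa2h* gave -2.87 (SE 0.28, edgeR adjusted p = 0.0019), *Lims2* -2.42 (SE 0.20, edgeR adjusted p = 0.0018), *Cldn11* -1.35 (SE 0.30, edgeR adjusted p = 0.017) and *Cnp* -0.57 (SE 0.11, edgeR adjusted p = 0.0096). *Olig1*, *Olig2* and *Cspg4* were higher in value, at 0.43, 0.26 and 0.29, and did not pass in edgeR's test of these libraries. Without the same library *Olig1* passed as higher by DESeq2 (adjusted p = 0.0087), and *Olig1*, *Olig2* and *Omg* did in the edgeR fit of all groups together (adjusted p = 0.014, 0.045 and 0.046). Leaving out replicate 2 or replicate 3 instead gave 0 members, so that the calls turn on a single library. The 3 R206H libraries lay below both remaining *ACVR1* WT libraries for 23 of 33 members, against 28.3% of all genes. *ACVR1* WT replicate 1 also lay below both for all 23, as it did for 3979 of the 4364 such genes among all. In the same fit without replicate 1, 6 of the 8 astrocyte markers and 3 of 5 tested microglia markers were also lower with R206H and 0 were higher. Of the other lists, 2 of 7 tested neuron markers were lower, 2 of 7 neural progenitor markers were lower and 2 higher, and 3 of 5 tested Schwann cell markers and 1 of 3 tested ependymal markers were higher. The part of these cells in the result was not tested.

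The difference between the R206H effects with and without H3.1K27M was tested as an interaction on the 12 libraries. For 0 of 33 members did it pass, and for 0.0712% of all genes tested, with 5 members at an unadjusted p under 0.05 (*Omg*, *Nkx6-2*, *Nkx2-2*, *Enpp6* and *Bcas1*), against 7.66% of all genes. DESeq2 called 0 members and 0.622% of all genes, with 6 members at an unadjusted p under 0.05, against 7.52%. *Gpr17* gave 1.93 (SE 1.13, edgeR adjusted p = 0.69) and *Sox10* 0.66 (SE 0.53, edgeR adjusted p = 0.76). Without *ACVR1* WT replicate 1, 15 members had a higher (less negative or more positive) R206H effect with H3.1K27M and 4 a lower effect, where 13.6% and 13.0% of all genes did. All 6 genes of differentiating cells were among the 15, with *Gpr17* at 2.49 (SE 0.31, edgeR adjusted p = 0.00014) and *Myrf* at 1.85 (SE 0.30, edgeR adjusted p = 0.0008), and *Sox10* at 1.08 (SE 0.12, edgeR adjusted p = 9e-05) among the precursor genes. The 4 were *Olig1*, *Olig2*, *Cspg4* and *Omg*.

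In the R206H groups the members moved both ways with H3.1K27M. Relative to *ACVR1* R206H alone, 12 of 33 tested members rose (36.4%) and 17 fell (51.5%), with 29.1% of all genes higher and 27.4% lower, so that the share that rose was near that of all genes. *Zfp536* is one of the 12, and since it reached the filter through its H3.1K27M libraries, its direction was set by the filter here and in the other comparison by H3.1K27M. With all 12 libraries in 1 fit 3 members were higher and 9 lower, where 20.8% and 17.8% of all genes were. Of the other 7 precursor genes 5 rose and 2 fell, of the 6 genes of differentiating cells 2 rose and 3 fell, and of the 19 myelin genes 4 rose and 12 fell. The class medians of the log2 fold change were 0.36 (without *Zfp536*), -0.33 and -0.48, against -0.0018 for all genes. The groups did not overlap for 11 members that were higher, *Zfp536* included, and 16 that were lower, against 31.1% and 32.0% of all genes.

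In the precursor class *Sox10* rose by 1.02 (SE 0.074, edgeR adjusted p = 3.1e-07) and *Nkx2-2* by 1.04 (SE 0.087, edgeR adjusted p = 1.1e-06). *Olig1*, *Olig2* and *Cspg4* rose by less, with log2 fold changes of 0.39 (SE 0.056, edgeR adjusted p = 9.7e-05), 0.25 (SE 0.044, edgeR adjusted p = 0.00046) and 0.36 (SE 0.10, edgeR adjusted p = 0.0077). *Zfp536* gave 2.14 (SE 0.29, edgeR adjusted p = 5.7e-05), on the low counts given above. *Sox8* and *Lhfpl3* fell, at -0.92 (SE 0.049, edgeR adjusted p = 2.6e-08) and -0.34 (SE 0.052, edgeR adjusted p = 0.00017). Within the class, then, the SoxE genes *Sox8* and *Sox10* moved in opposite directions.

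Of the genes of differentiating cells, *Enpp6* rose by 2.13 (SE 0.25, edgeR adjusted p = 1.6e-05) and *Myrf* by 0.72 (SE 0.13, edgeR adjusted p = 0.00043). *Gpr17* fell, with -2.16 (SE 0.15, edgeR adjusted p = 2.2e-07), as did *Nkx6-2*, with -1.28 (SE 0.13, edgeR adjusted p = 6.7e-06), and *Bcas1*, with -0.22 (SE 0.049, edgeR adjusted p = 0.0023). *Zfp488* gave -0.45 (SE 0.19, edgeR adjusted p = 0.067) and did not pass. The myelin gene with the largest fall was *Gjc3*, at -2.31 (SE 0.067, edgeR adjusted p = 4.9e-10). *Mog* gave -1.45 (SE 0.23, edgeR adjusted p = 0.0002), *Tspan2* -1.38 (SE 0.074, edgeR adjusted p = 2.8e-08) and *Lims2* -1.39 (SE 0.17, edgeR adjusted p = 2.8e-05). *Omg*, *Enpp2* and *Cnp* fell too, with log2 fold changes of -0.75, -0.63 and -0.49, with adjusted p of 1.5e-07, 3.1e-05 and 5.3e-05 in edgeR's test. *Fa2h*, *Mobp*, *Gpr37*, *Sirt2* and *Ugt8a* also fell, with log2 fold changes from -0.29 for *Sirt2* to -1.27 for *Mobp*. The 4 that rose were *Cldn11*, at 0.52 (SE 0.15, edgeR adjusted p = 0.0098), *Mbp*, at 0.33 (SE 0.10, edgeR adjusted p = 0.011), *Aspa* and *Qdpr*. *Mag* did not pass, at 0.30 (SE 0.16, edgeR adjusted p = 0.12). The log2 fold change of *Acvr1* itself was 3.23 between these groups. All 5 tested Schwann cell markers, 4 of 8 neuron markers and 2 of 8 astrocyte markers were higher, with 4 astrocyte and 2 neuron markers lower. Of 7 neural progenitor markers 1 was higher and 3 lower, and of 2 tested microglia markers 1 was higher and 1 lower. All 3 tested fibroblast markers, 2 of 2 tested endothelium and pericyte markers and 2 of 3 tested ependymal markers were higher. The part of these cells in the values was not tested. The Schwann cell list summed to 40.8 to 60.8 CPM without H3.1K27M and 98.4 to 119 with it.

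With *ACVR1* WT, 2 members (*Cspg4* and *Zfp536*, the latter with its direction set by the filter) were higher with H3.1K27M and 8 fell, where 12.6% of all genes were higher and 10.4% lower. The comparisons by H3.1K27M share their libraries with those by R206H, so that they are not independent of each other. *Gjc3* fell, with a log2 fold change of -2.02 (SE 0.18, edgeR adjusted p = 0.0018), and *Tspan2* with -1.68 (SE 0.22, edgeR adjusted p = 0.0049). *Nkx6-2* gave -2.52 (SE 0.40, edgeR adjusted p = 0.0085), *Mog* -1.35 (SE 0.22, edgeR adjusted p = 0.01) and *Sox8* -0.77 (SE 0.13, edgeR adjusted p = 0.01). *Cnp* and *Omg* fell by less, at -0.90 (SE 0.23, edgeR adjusted p = 0.034) and -0.34 (SE 0.10, edgeR adjusted p = 0.048). *Gpr17* gave -4.08 (SE 1.12, edgeR adjusted p = 0.044) although *ACVR1* WT replicate 1 overlapped the H3.1K27M libraries. *Cspg4* rose by 0.83 (SE 0.23, edgeR adjusted p = 0.044), and *Zfp536* gave 3.03 (SE 0.38, edgeR adjusted p = 0.0043). *Sox10*, *Myrf*, *Mbp*, *Mag* and *Cldn11* did not pass, at 0.36, -0.68, 0.55, 0.57 and 0.0014, nor did *Olig1* and *Olig2*, at 0.61 and 0.49. The counts moved with single libraries, to 1 and 5 without *ACVR1* WT replicate 2, 4 higher without its replicate 3, and 1 higher with 4, 2 and 3 lower without replicate 1, 2 or 3 of the *ACVR1* WT and H3.1K27M group. With same-numbered replicates as a block in edgeR they were 1 and 5. The share of all genes in these fits is not given here.

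Without *ACVR1* WT replicate 1, 4 members were higher with H3.1K27M (*Zfp536*, *Olig1*, *Olig2* and *Cspg4*) and 20 lower, where 26.9% of all genes were higher and 25.6% lower. Apart from *Zfp536*, which again entered only through its H3.1K27M libraries, the 3 were precursor genes, and the 20 took in *Sox8* and *Lhfpl3*, all 6 genes of differentiating cells and 12 of 19 myelin genes. *Gpr17* then gave -4.64 (SE 0.23, edgeR adjusted p = 3.9e-06), *Fa2h* -3.32 (SE 0.26, edgeR adjusted p = 2.9e-05) and *Lims2* -2.92 (SE 0.18, edgeR adjusted p = 1e-05). *Enpp6* and *Myrf* were lower, at -1.35 (SE 0.38, edgeR adjusted p = 0.017) and -1.12 (SE 0.25, edgeR adjusted p = 0.0058), whereas in the R206H groups both rose. *Sox10* was at -0.057 (SE 0.091, edgeR adjusted p = 0.63), and thus changed sign with the library left out without passing in either fit. In the same fit 5 of 8 astrocyte markers were lower and 1 higher, with sums of 11041 and 15398 CPM in *ACVR1* WT replicates 2 and 3 against 5507 to 5749 with H3.1K27M, where replicate 1 was at 5153. Of 8 neuron markers 4 were lower and 2 higher (1695 and 1519 CPM against 748 to 788), and 3 of 4 tested microglia markers were lower (8.51 and 12.5 CPM against 1.31 to 1.86). Of 7 neural progenitor markers 4 were lower and 2 higher, and of 5 tested Schwann cell markers 4 were higher (40.8 and 50.6 CPM against 98.4 to 107). All 3 tested fibroblast markers and 3 of 4 tested ependymal markers were higher, with 1 ependymal marker lower. The part of these cells in the values was not tested.

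**Figure D4:**
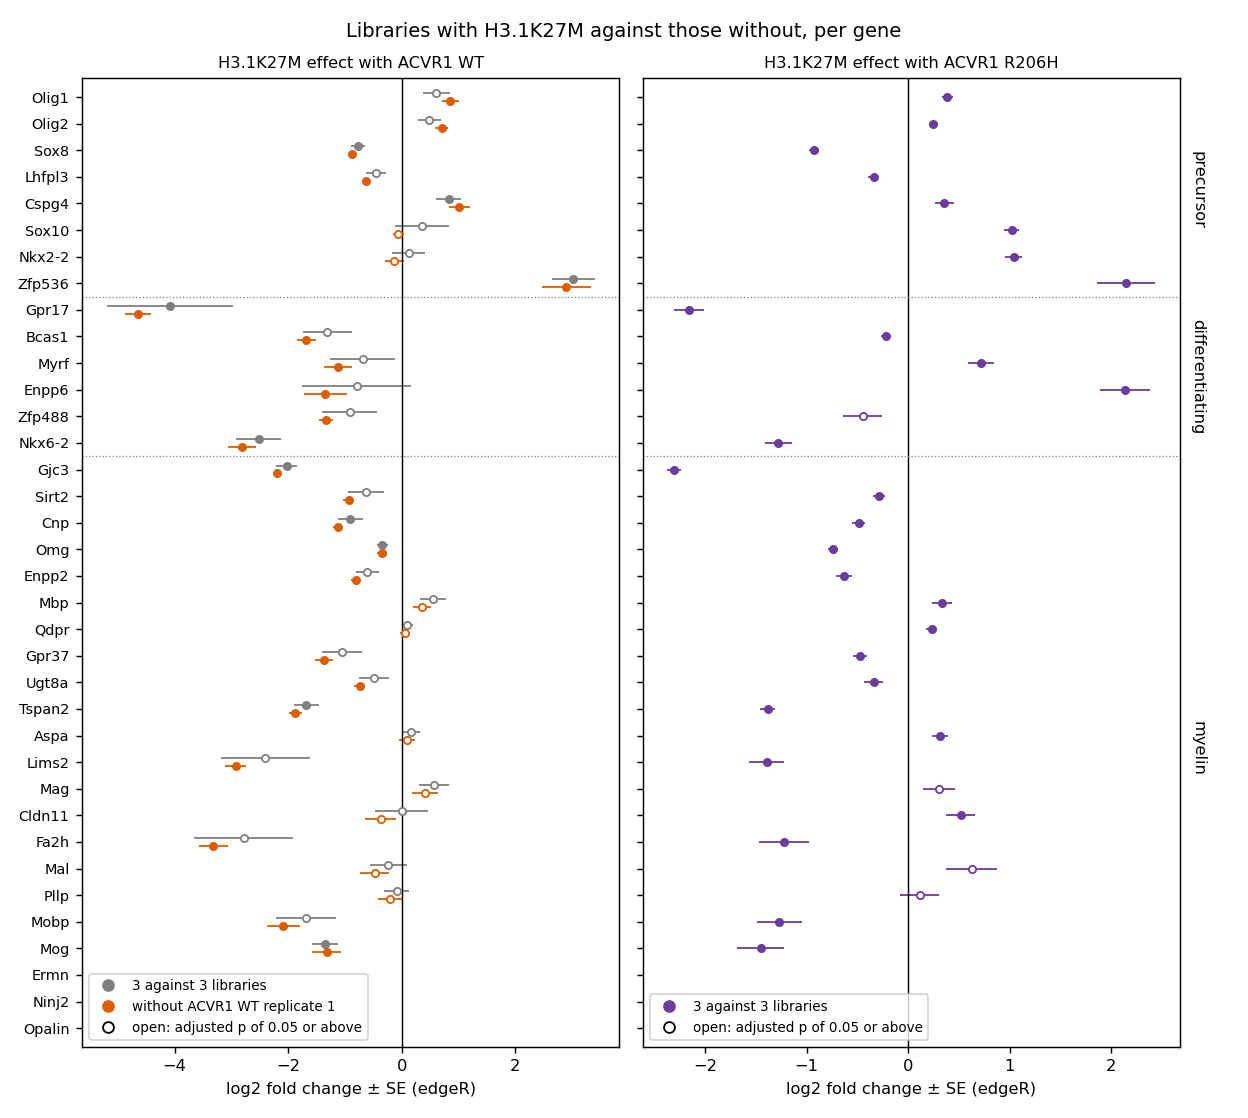
Log2 fold change with its SE of the libraries with H3.1K27M against those without, for *ACVR1* WT (left) and *ACVR1* R206H (right). The axes differ in scale, filled points have an adjusted p under 0.05 in edgeR's quasi-likelihood test, orange points leave out *ACVR1* WT replicate 1, and rows with no point were not tested. Most precursor genes lie right of 0 and most myelin genes left of 0 on the right, where 29 of 33 members pass.

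The balance between the first and the last class was also read by library. The median over a class of log2(CPM + 0.5), each gene centered on its mean over the 12 libraries, was taken for precursor genes minus myelin genes. The difference was 0.13, -0.51 and -0.69 in the *ACVR1* WT replicates and -0.064, -0.42 and -0.20 with *ACVR1* R206H. With H3.1K27M it was 0.50, 0.47 and 0.37 with *ACVR1* WT and 0.35, 0.49 and 0.35 with *ACVR1* R206H. All 6 libraries with H3.1K27M thus lay above all 6 without it, and within each H3.1K27M state the *ACVR1* WT and R206H libraries overlapped. The precursor median took in *Zfp536*, which was higher in every library with H3.1K27M than in every library without it. The myelin median took in *Opalin*, *Ninj2* and *Ermn*, which were below the filter. The part of these genes in the separation was not tested. The summed CPM of the 22 myelin genes was 1381 to 2423 with *ACVR1* WT, 1593 to 1863 with *ACVR1* R206H, 1005 to 1084 with *ACVR1* WT and H3.1K27M, and 895 to 949 with *ACVR1* R206H and H3.1K27M, a sum to which *Gjc3* contributes much. No p is given for these summaries, since the genes were chosen with results known.

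Other genes of the lineage were read from 2 further lists. Of 28 other lineage genes, 23 were tested with H3.1K27M between R206H and *ACVR1* WT, and 7 fell and 3 rose, where 8.95% of all genes fell and 11.4% rose. *Pdgfra*, the growth factor receptor of precursors, was at 131, 430.3 and 301 CPM with *ACVR1* WT, 169, 219 and 172 with *ACVR1* R206H, 182, 189 and 179 with *ACVR1* WT and H3.1K27M, and 137, 154 and 118 with *ACVR1* R206H and H3.1K27M. With H3.1K27M present, *Pdgfra* was lower with R206H, with a log2 fold change of -0.42 (SE 0.072, edgeR adjusted p = 0.0013). *ACVR1* WT replicate 1 was the lowest of its group, as for *Sox10* and *Gpr17*. *Neu4*, a sialidase, was the gene of this list whose log2 fold change reached 1 in size, with -1.42 (SE 0.13, edgeR adjusted p = 1e-05). For H3.1K27M in the R206H groups 8 of 23 rose and 12 fell, against 29.1% and 27.4% of all genes, among them *Lpar1*, a lysophosphatidic acid receptor, at -2.19 (SE 0.11, edgeR adjusted p = 1.3e-08), *Car2*, a carbonic anhydrase, at 1.09 (SE 0.062, edgeR adjusted p = 4.3e-08), and *Pdgfc*, a growth factor, at 1.40 (SE 0.091, edgeR adjusted p = 1.3e-07).

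Of 30 regulators of the lineage, all tested, 14 rose and 5 fell with R206H in the presence of H3.1K27M, where 11.4% and 8.95% of all genes did. The regulators include the member *Gpr37* and share *Pdgfra* and *Sox6* with the other lineage genes, so that these are counted in more than 1 list. The ID genes, which block bHLH factors such as OLIG1 and OLIG2, led the list. *Id2* was at 157, 191 and 244 CPM with *ACVR1* WT, 262, 251 and 261 with *ACVR1* R206H, 127, 122 and 128 with *ACVR1* WT and H3.1K27M, and 546, 510.1 and 605 with *ACVR1* R206H and H3.1K27M, a log2 fold change with R206H of 2.15 (SE 0.058, edgeR adjusted p = 2.8e-10) in the presence of H3.1K27M and of 0.40 (SE 0.16, edgeR adjusted p = 0.94) without it, or 0.26 (SE 0.10, edgeR adjusted p = 0.096) when *ACVR1* WT replicate 1 was left out. *Id4* was at 14.7, 65.3 and 89.6, 42.7, 54.0 and 36.3, 14.0, 13.6 and 12.6 and 45.7, 43.0 and 54.1 CPM, with 1.84 (SE 0.088, edgeR adjusted p = 4.6e-08) and -0.34 (SE 0.58, edgeR adjusted p = 0.94), and -0.80 (SE 0.17, edgeR adjusted p = 0.016) for the last when *ACVR1* WT replicate 1 was left out. Within *ACVR1* WT, *Id4* had the same order of replicates as *Gpr17*, lowest in replicate 1. *Id1* and *Id3* changed by 2.99 (SE 0.08, edgeR adjusted p = 2.8e-10) and 2.99 (SE 0.077, edgeR adjusted p = 2.8e-10) with H3.1K27M. Without it all R206H libraries lay above all *ACVR1* WT libraries for both genes, at 1.21 (SE 0.25, edgeR adjusted p = 0.94) and 0.67 (SE 0.19, edgeR adjusted p = 0.94). When *ACVR1* WT replicate 1 was left out, these were 1.08 (SE 0.22, edgeR adjusted p = 0.013) and 0.51 (SE 0.13, edgeR adjusted p = 0.025). Without H3.1K27M, 0 of 30 regulators passed in edgeR's test, 3 had an unadjusted p under 0.05, DESeq2 called 1 (*Id1*, higher), and 7 were higher and 8 lower when *ACVR1* WT replicate 1 was left out, against 12.1% and 11.0% of all genes.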

How the data were processed

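RNA of 12 neurosphere samples, 3 in each of 4 groups named by the labels, was sequenced in paired-end mode. The authors aligned reads to mm10 (GRCm38) with STAR (2.6.0b-1 in the processing notes), used HTSeq-count on Ensembl genes (union mode without strand, a quality of at least 10, ambiguous and multiply mapped reads left out) and deposited raw counts per gene and sample. Symbols, positions and exon lengths came from GENCODE M21 of the same build, with 54409 of 54532 identifiers paired with a symbol. Library totals were 19315020 to 26456257, so that at 3 libraries per group the replicates limit the precision.

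The members, classes and gene lists were chosen with earlier results of these data known. All fits used every gene that passed the filter, with members read out afterwards. Each comparison of 6 libraries was fitted in edgeR 4.0.16 (limma 3.58.1, R 4.3.3) with TMM factors and the quasi-likelihood F test. Genes entered if their normalized counts (median-of-ratios) averaged 10 or more, and passed at a Benjamini-Hochberg adjusted p under 0.05. The interaction used 12 libraries. The SE was the absolute log2 fold change divided by the square root of F. Values in all libraries were given for the members that passed in any test, at most 12 per comparison and otherwise by range, and for 11 genes whatever their result (*Sox10*, *Olig1*, *Olig2*, *Cspg4*, *Gpr17*, *Myrf*, *Mbp*, *Mog*, *Mag*, *Cnp* and *Cldn11*). From other lists, genes that passed and changed 2-fold or more were named, at most 4 per list, with *Pdgfra*, *Id2*, *Id4* and *Acvr1* in any case. Some genes are not reported here. A promoter was to be shown for *Sox10* and at most 2 further members with the smallest adjusted p for R206H with H3.1K27M, of which *Gjc3* had an entry in the RefSeq table. *Gfap*, *Nes*, *Dcx*, *Foxj1* and *Rgs5* were named after their values were seen. Alternatives were DESeq2 1.42.0, which the authors used, its size factors, 2 other filters, the replicate block, all 12 libraries in 1 fit, a fold threshold and each library left out. Fits by DESeq2 and of all groups together without *ACVR1* WT replicate 1 were added after seeing the data. The same fit code was also run on simulated counts, with an outcome that is not given here. No 2 replicates were alike within sampling noise, the lowest chi-square per degree of freedom being 2.91.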

Additional observations from a re-analysis of the deposited data

Results flagged for a closer look

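*Omg* drew attention because its R206H libraries lay above all *ACVR1* WT libraries without H3.1K27M, at 152, 155 and 144 against 127, 142 and 114 CPM, and below all of them with H3.1K27M, at 93.1, 90.1 and 83.7 against 106, 99.9 and 94.7 CPM. The difference between the R206H effects was -0.40 on the log2 scale (SE 0.11, edgeR adjusted p = 0.4), which did not pass as an interaction. Without *ACVR1* WT replicate 1 it was -0.39 (SE 0.11, edgeR adjusted p = 0.018).

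*Id2*, a regulator outside the 36 genes, drew attention because its R206H effect was larger with H3.1K27M than without it, by 1.75 (SE 0.18, edgeR adjusted p = 0.0059) on the log2 scale in the interaction test. Without *ACVR1* WT replicate 1 the difference was 1.90 (SE 0.12, edgeR adjusted p = 5.2e-06). In each H3.1K27M state all 3 R206H libraries lay above all 3 *ACVR1* WT libraries.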

How the results depend on the processing

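Counts of members are given as higher and lower, here and for the replicate block below, without the share of all genes in each fit. They therefore do not show whether a change in a count is particular to the members. For R206H without H3.1K27M, leaving out *ACVR1* WT replicate 1 moved the share of all genes called from 0.0% to 12.1% higher and 11.0% lower. For R206H with H3.1K27M (1 and 17), no filter gave 2 higher, DESeq2 with the replicate block 0 higher, all 12 libraries in 1 fit 0 and 0, and a fold threshold of 1 on the log2 scale 0 and 1. For H3.1K27M with *ACVR1* WT (2 and 8), a minimum of 10 counts in every sample gave 1 higher, DESeq2 14 lower, all 12 libraries 5 and 15, and the fold threshold 1 and 5. For H3.1K27M with *ACVR1* R206H (12 and 17), all 12 libraries gave 3 and 9 and the fold threshold 4 and 8. With each library left out of the edgeR fit in turn, R206H without H3.1K27M gave 0 higher and 0 to 19 lower, R206H with it ranged over 1 to 3 and 12 to 17, H3.1K27M with *ACVR1* WT over 1 to 4 and 2 to 20, with *ACVR1* R206H over 11 to 14 and 17 to 18, and the interaction over 0 to 15 and 0 to 4. Changing the fit as well as leaving out *ACVR1* WT replicate 1 gave, for R206H without H3.1K27M, 1 and 21 by DESeq2 and 3 and 23 with all groups together, for H3.1K27M with *ACVR1* WT 4 and 20 by both, and for the interaction 17 and 3 by DESeq2. For R206H with H3.1K27M, which does not hold that library, all groups together without it gave 1 and 9. For R206H with H3.1K27M, 3 were higher without *ACVR1* WT and H3.1K27M replicate 1.

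Signs turned for members that did not pass with all libraries. With a library left out, R206H without H3.1K27M ranged over -0.014 to 0.43 for *Olig1*, -0.13 to 0.26 for *Olig2*, -0.12 to 0.29 for *Cspg4*, -0.18 to 0.026 for *Mog* and -0.42 to 0.12 for *Mag*. R206H with H3.1K27M ranged over -0.13 to 0.029 for *Olig1*, and H3.1K27M with *ACVR1* WT over -0.057 to 0.68 for *Sox10*, -1.12 to 0.045 for *Myrf* and -0.37 to 0.70 for *Cldn11*, with -0.057 and -0.37 for *Sox10* and *Cldn11* by DESeq2 without *ACVR1* WT replicate 1 and -0.062 and -0.38 with all groups together without it. The interaction ranged over -0.25 to 0.013 for *Mog* and -0.19 to 0.89 for *Cldn11*. *Cldn11* with H3.1K27M in *ACVR1* WT was also -0.0014 by DESeq2 and by its size factors, -0.0023 with no filter and -0.011 with all 12 libraries. The centered median of the precursor genes with *ACVR1* WT was -0.11 by library total and -0.084 by TMM. Apart from libraries left out, 562 values of single members kept direction and side of the threshold, 51 lost and 7 gained the call, and 4 turned. The causes were not tested.

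Same-numbered replicates were taken not to be paired, since the correlation of their deviations from group means over 15445 genes was over 0.1 for every replicate in none of the 4 comparisons (0.31, 0.42 and -0.14 for R206H without H3.1K27M). The paper used paired t tests for its other neurosphere assays, with lines from independent litters as samples. For RNAseq it names no pairing. With the replicate block, edgeR gave 0 members for R206H without H3.1K27M, 1 and 17 with it, 1 and 5 for H3.1K27M with *ACVR1* WT and 13 and 18 with *ACVR1* R206H, while DESeq2 gave 5 higher for H3.1K27M with *ACVR1* WT and 1 lower for the interaction.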

Other observations

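The 5 fibroblast markers summed to 2.42 to 3.63 CPM over the 6 libraries without H3.1K27M and to 6.71 to 10.5 CPM over the 6 with it. Of these, *Col1a2*, a collagen chain, had a log2 fold change with H3.1K27M of 2.76 (SE 0.25, edgeR adjusted p = 1.9e-06) with *ACVR1* R206H and of 2.50 (SE 0.26, edgeR adjusted p = 0.0026) with *ACVR1* WT, or 2.36 (SE 0.30, edgeR adjusted p = 0.00032) without *ACVR1* WT replicate 1. The 5 ependymal markers summed to 31.3 to 56.9 CPM without and 68.7 to 83.5 CPM with H3.1K27M, most of it *Foxj1*, a factor of motile cilia, at 68.3, 64.5 and 64.9 CPM with *ACVR1* WT and H3.1K27M and 77.0, 71.5 and 78.3 CPM with *ACVR1* R206H and H3.1K27M. The 6 endothelial and pericyte markers summed to 18.0 to 26 CPM with *ACVR1* R206H and H3.1K27M and to at most 13.6 CPM in the other 3 groups. Most of the sum with *ACVR1* R206H and H3.1K27M was *Rgs5*, at 22.5, 15.2 and 19.8 CPM. *Pou3f1*, a POU factor of the Schwann cell list, was at 1.56, 0.156 and 0.0977 CPM with *ACVR1* WT, 1.25, 0.776 and 1.31 with *ACVR1* R206H, 16.4, 13.2 and 15.3 with *ACVR1* WT and H3.1K27M, and 14.4, 13.7 and 15.6 with *ACVR1* R206H and H3.1K27M. All libraries with H3.1K27M thus lay above all others for this gene.

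Among the regulators of the lineage, *Hes5*, a Notch target that holds progenitors undifferentiated, fell with H3.1K27M in both backgrounds, with log2 fold changes of -2.91 (SE 0.094, edgeR adjusted p = 8.6e-10) with *ACVR1* R206H and -2.92 (SE 0.24, edgeR adjusted p = 0.0016) with *ACVR1* WT, or -2.99 (SE 0.21, edgeR adjusted p = 1.5e-05) without *ACVR1* WT replicate 1. *Lingo1*, a membrane protein known to limit myelination, fell likewise, with -2.24 (SE 0.094, edgeR adjusted p = 4.5e-09) and -2.31 (SE 0.33, edgeR adjusted p = 0.0065), or -2.61 (SE 0.11, edgeR adjusted p = 2.6e-06) without that library. *Fgfr2*, an FGF receptor, rose with H3.1K27M in both backgrounds too, by 1.28 (SE 0.054, edgeR adjusted p = 4.6e-09) with *ACVR1* R206H and 0.81 (SE 0.19, edgeR adjusted p = 0.027) with *ACVR1* WT, or 0.66 (SE 0.14, edgeR adjusted p = 0.0045) without *ACVR1* WT replicate 1.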
